A study of Mus musculus with 3 samples.

Results

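The mir-181 family of microRNAs (miRs) was measured by small RNA sequencing in cultured aortic smooth muscle cells (AoSMC) of the mouse, the cells that contract the artery. Every counting window named for mmu-miR-181a, mmu-miR-181b, mmu-miR-181c or mmu-miR-181d was taken (the prefix mmu, for mouse, is left out below), whatever its arm, locus or level. This gave 24 of the 2590 windows, of which 12 held miRs and 12 held microRNA-offset RNAs (moRs), small RNAs cut from the same arm of the hairpin just outside the miR. The 12 miR windows belong to 6 hairpins, each with a miR on its 5p arm and 1 on its 3p arm.

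The primary cells grew out of pieces of several C57BL/6 aortas and were kept in serum until near confluence, without another treatment or genetic change named in the sources, and the age of the mice was not given in the sources used here. The study's methods add that cells were moved to charcoal-treated serum before experiments, a step that the labels of these libraries leave out. The series held 1 group of 3 libraries, replicates 1 to 3, so no contrast between conditions exists and every test below compared RNAs within the same libraries. The labels name biological replicates without saying whether these were separate cultures. The p-values rest on how differences within a library varied from library to library, with the variance partly shared over all pairs tested. That variation may be technical. The windows held 13632069, 12546339 and 15175671 reads in replicates 1, 2 and 3, and levels are given as RPMR, reads divided by the library's reads in all miR and moR windows, times 1000000. The smooth muscle miRs miR-143-3p and miR-145a-5p reached a mean of 50855 and 1195 RPMR. The 6 blood miRs that were checked summed to 0.88 to 1.45 RPMR per library, and each was below 1 RPMR. The endothelial pair miR-126a-3p and miR-126a-5p summed to 125 to 158 RPMR.

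miRs are cut in pairs from the arms of a hairpin, and as a rule 1 arm of the pair is loaded into an Argonaute protein and the other is degraded. The loaded miR finds its target mRNAs mainly through its seed, bases 2 to 8 from the 5′ end. The miR-181 family is best known from lymphocytes, where mouse miR-181a tunes the sensitivity of T cell receptor signalling, and from the vessel wall, where miR-181b restrains NF-kB signalling in endothelial cells. The family is made by paired hairpins in a few clusters, so the same or nearly the same 5p miR can come from several places in the genome.

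The 5p miRs are shown first because a common seed is what joins them into a family. Sequences are from RefSeq (GRCm38.p6, the same assembly as mm10), written 5′ to 3′ with the seed in capitals.
miR-181a-5p: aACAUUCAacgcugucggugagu
miR-181b-5p: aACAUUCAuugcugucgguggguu
miR-181c-5p: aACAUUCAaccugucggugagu
miR-181d-5p: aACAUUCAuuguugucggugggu
The seed was identical in all 4, and 0 other mature mouse miRs of the RefSeq table carried it. Counted from the 5′ end, miR-181b-5p differs from miR-181a-5p at A9U, C10U and A21G and is 1 base longer. miR-181c-5p, of 22 bases, shares its first 10 and last 12 bases with miR-181a-5p, which holds 1 more base between them. miR-181d-5p differs from miR-181b-5p at C12U and lacks its last base. The miR-181a-5p of both copies is the same sequence, as is the miR-181b-5p of both copies.

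The 3p miRs are shown because they differ between all 6 hairpins and so carry the locus of origin, again with bases 2 to 8 in capitals.
miR-181a-1-3p: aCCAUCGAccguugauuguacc
miR-181a-2-3p: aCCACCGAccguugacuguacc
miR-181b-1-3p: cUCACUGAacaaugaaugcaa
miR-181b-2-3p: cUCACUGAucaaugaaugcaaa
miR-181c-3p: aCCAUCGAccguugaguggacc
miR-181d-3p: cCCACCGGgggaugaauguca
miR-181a-1-3p and miR-181c-3p, from different clusters, share the seed CCAUCGA and differ at U16G and U19G. The copies miR-181a-1-3p and miR-181a-2-3p differ at U5C, inside the seed, and at U16C. The copies miR-181b-1-3p and miR-181b-2-3p share the seed UCACUGA and differ at A9U, and miR-181b-2-3p is 1 base longer. Only perfect matches to the genome were kept, and a read that matched several hairpins was divided evenly. All 18 deposited 3p values of the family, 6 miRs in 3 libraries, were whole numbers. For miR-181a-2-3p the counting window began at the first base of the RefSeq sequence and reached 6 bases past its end, and for miR-181b-1-3p it ended 1 base past it, whereas the windows of the other 3p miRs reached 3 bases beyond both ends.

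The hairpins lie in 3 clusters (coordinates in mm10, genes from GENCODE M21). Mir181a-1 (chr1:137966455-137966541) and Mir181b-1 (chr1:137966639-137966718) are on the plus strand, 97 bases apart, in an intron of the noncoding gene Gm4258 and over an exon of the lincRNA A430106G13Rik, both on the same strand, with an intron of the lincRNA Gm26936 on the opposite strand. Mir181a-2 (chr2:38852735-38852810) and Mir181b-2 (chr2:38853830-38853918) are on the plus strand, 1019 bases apart, opposite an intron of Nr6a1, which encodes an orphan nuclear receptor, and Mir181b-2 is also opposite an exon of Gm44144, a gene model still to be verified by experiment. Mir181c (chr8:84178873-84178961) and Mir181d (chr8:84178716-84178787) are on the minus strand, 85 bases apart, in an intron of Nanos3, a germ cell gene transcribed from the same strand.

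The 4 members were found at very different levels. miR-181a-5p was the most abundant, miR-181b-5p followed, miR-181d-5p came next, and miR-181c-5p was the rarest 5p miR. The 12 miR windows together held 1376, 1073 and 1192 RPMR in replicates 1, 2 and 3, a mean of 1214 ± 152 RPMR (SD, n = 3), or 0.121% of the window reads. The 5p miRs made up 94.0% of these reads. Thus the RNAs with the common seed ACAUUCA reached 1141 ± 154 RPMR (SD, n = 3), and their range, 1004 to 1307 RPMR, lay within the 987 to 1484 RPMR of the smooth muscle miR miR-145a-5p.

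miR-181a-5p, summed over both loci, had 11189.5, 7804.5 and 10566 reads in replicates 1, 2 and 3, or 821, 622 and 696 RPMR. miR-181b-5p, summed in the same way, had 4720, 3411 and 4516 reads, or 346, 272 and 298 RPMR. miR-181d-5p, from its single locus, had 1678, 1247 and 1578 reads, or 123, 99.4 and 104 RPMR. These levels did not overlap between miRs in any library, and each of the 3 miRs was highest in replicate 1 and lowest in replicate 2. miR-181c-5p, also from a single locus, had 235, 130 and 203 reads, or 17.2, 10.4 and 13.4 RPMR. Its coefficient of variation was 25.2%, against 14.1%, 12.4% and 11.6% for miR-181a-5p, miR-181b-5p and miR-181d-5p.

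Whether the lettered relatives differ was tested on these sums, in which the division of reads between copies plays no part. All 6 pairs differed (edgeR quasi-likelihood test blocked by library, Benjamini-Hochberg adjusted over 175 pairs of relatives), but so did 93.1% of all pairs of lettered relatives tested. The closest pair was miR-181a-5p and miR-181b-5p, where the log2 difference was 1.22 ± 0.05 (SE, adjusted p = 1.2e-06). miR-181b-5p exceeded miR-181d-5p by 1.49 ± 0.06 on the log2 scale (adjusted p = 8.3e-07). miR-181c-5p lay below miR-181d-5p, the miR of its cluster neighbour, with a log2 difference of -3.01 ± 0.10 (adjusted p = 5.1e-07). The widest gap, between miR-181a-5p and miR-181c-5p, was 5.72 ± 0.09 on the log2 scale (adjusted p = 2.4e-08). The median size of the difference was 2.86 over the 6 pairs and 2.81 over all 175.

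**Figure D1:**
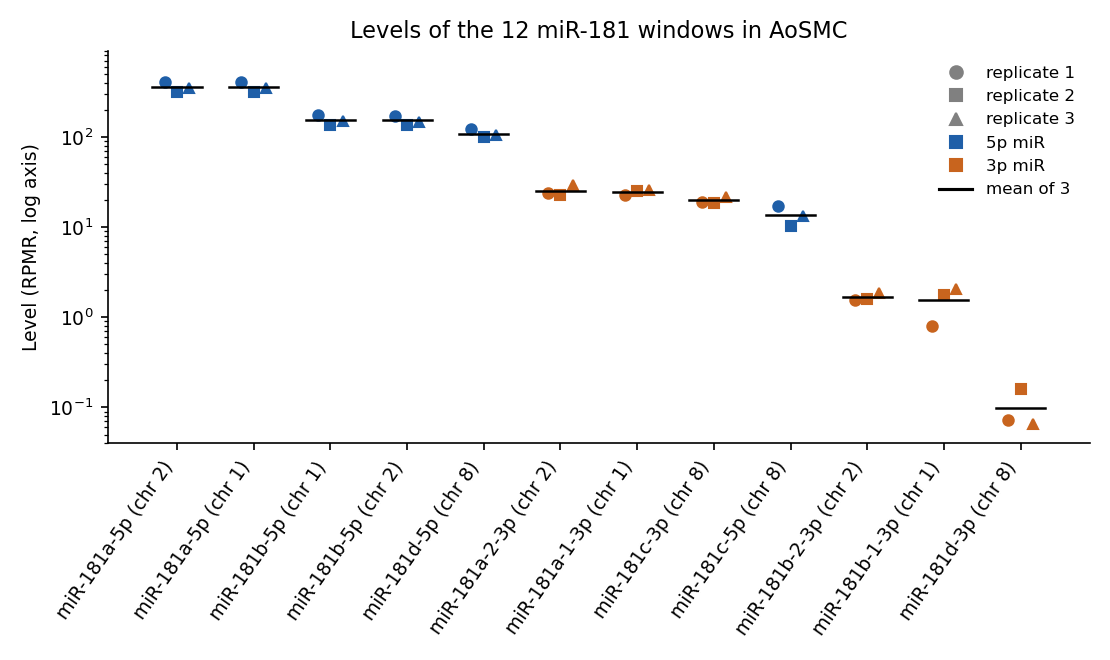
Level of each of the 12 miR-181 windows (RPMR, log axis) in each library, with the mean of the 3 libraries as a bar, 5p miRs in blue and 3p miRs in orange. The values ran from a mean of 357 RPMR for miR-181a-5p at chromosome 2 to 0.10 RPMR for miR-181d-3p, and miR-181c is the only member whose 3p miR stood above its 5p miR.

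The 3p miRs fell into separate tiers. miR-181a-2-3p had 327, 285 and 448 reads, a mean of 25.4 ± 3.62 RPMR (SD, n = 3). miR-181a-1-3p had 310, 312 and 390 reads, a mean of 24.4 ± 1.53 RPMR. miR-181c-3p had 259, 232 and 328 reads, a mean of 19.7 ± 1.68 RPMR. These 3 miRs formed the upper tier, and both miR-181a-3p copies were above miR-181c-3p in all 3 libraries, while the copies overlapped each other. miR-181b-2-3p had 21, 20 and 28 reads, a mean of 1.66 ± 0.16 RPMR, and miR-181b-1-3p had 11, 22 and 31 reads, a mean of 1.53 ± 0.65 RPMR. The ranges of these copies overlapped, and the low value of miR-181b-1-3p in replicate 1 set its wide spread. miR-181d-3p had 1, 2 and 1 reads, below the 3 reads that a count of 0 still allows in a library, which equal 0.220, 0.239 and 0.198 RPMR in replicates 1, 2 and 3.

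Which clusters were active was asked from the 3p miRs, because the 5p reads of miR-181a and miR-181b could not be assigned to a locus. The windows of the 5p copies show why, with the bases that differ between copies in capitals and all windows on the plus strand.
Mir181a-1 5p window, chr1:137966465-137966493: GUgaacauucaacgcugucggugaguuug
Mir181a-2 5p window, chr2:38852738-38852766: UGgaacauucaacgcugucggugaguuug
Mir181b-1 5p window, chr1:137966647-137966675: AucaacauucauugcugucgguggguuGA
Mir181b-2 5p window, chr2:38853842-38853870: CucaacauucauugcugucgguggguuUG
Of the 29 bases of each window, 2 differed between the miR-181a copies and 3 between the miR-181b copies, all of them outside the mature sequence. Read as BED starts, the deposited starts would place the first base of each window 1 base further on. The deposited 5p values were accordingly almost equal. Those of miR-181a-5p differed by 4 reads in all, 0.014% of its reads, with more at chromosome 2. Those of miR-181b-5p differed by 28, 10 and 29 reads in replicates 1, 2 and 3, together 0.530% of its reads, with more at chromosome 1 in all 3 libraries.

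All 3 clusters gave locus-specific 3p reads in all 3 libraries. The cluster of Mir181a-1 and Mir181b-1 gave 321, 334 and 421 reads, the cluster of Mir181a-2 and Mir181b-2 gave 348, 305 and 476, and the cluster of Mir181c and Mir181d gave 260, 234 and 329. Their mean shares of the family's 3p reads were 35.7% ± 2.20, 37.1% ± 1.97 and 27.2% ± 0.67 (SD, n = 3). The shares of the first and the second cluster overlapped between libraries, and the first was the larger in replicate 2 only. The share of the Mir181c and Mir181d cluster was the lowest of the 3 in every library, between 26.8% and 28.0%, while the lowest share of the others was 34.3%. The exact 95% interval of a single share, which covers counting error only, ran from 31.7% to 37.1% for the first cluster in replicate 3, the deepest library. A share of 3p reads counts the 3p miR that was kept and not the primary transcript. In the third cluster, 819 of the 823 3p reads were those of miR-181c-3p, from the hairpin with more 3p than 5p miR. By 5p miR the third cluster was much the smallest. Its 5p miRs, of single loci, held 10.1% of the family's miR reads. Those of the first and the second cluster held 42.0% and 41.9%, as divided evenly between copies.

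**Figure D2:**
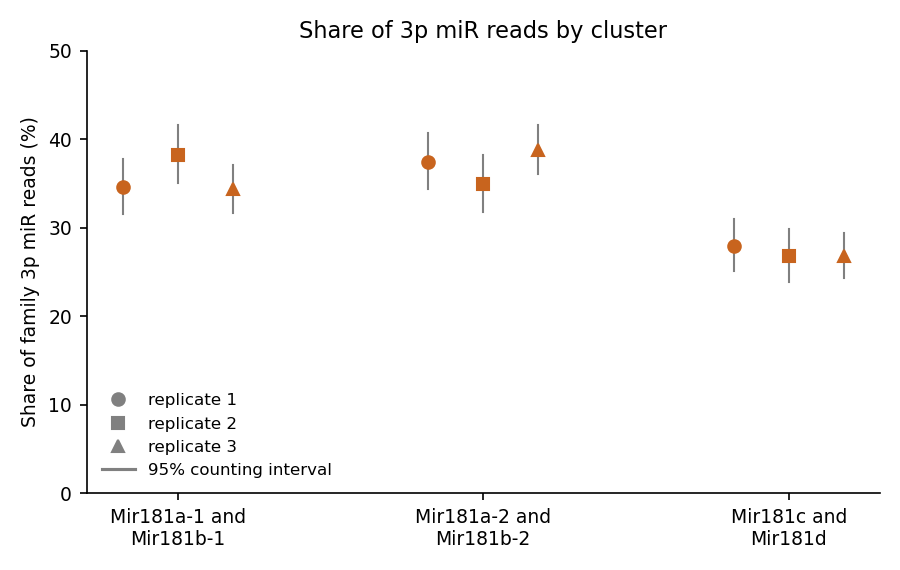
Share of the family's 3p miR reads (%) that came from each cluster, for each library, with the exact 95% interval for counting error as a vertical line. The clusters with Mir181a-1 and Mir181a-2 lay between 34.3% and 38.8%, and that of Mir181c and Mir181d between 26.8% and 28.0%.

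The 2 copies of each hairpin were compared directly through their 3p miRs. miR-181a-1-3p and miR-181a-2-3p were not found to differ, with a log2 difference of -0.05 ± 0.12 (SE) and a 95% interval from -0.29 to 0.19 (edgeR quasi-likelihood test, adjusted p = 0.68 over 14 pairs of copies). miR-181b-1-3p and miR-181b-2-3p gave -0.12 ± 0.25 with an interval from -0.63 to 0.40 (adjusted p = 0.68). Differences within these intervals are thus not excluded. Neither pair passed an unadjusted p of 0.05 in edgeR or in DESeq2, 0 of 2 in each. Of the 14 pairs of copies tested in the whole table, 64.3% differed, with a median size of 3.20 on the log2 scale against 0.08 for both pairs of this family. The sign was not stable, since the miR-181a copies gave 0.026 without replicate 3 and the miR-181b copies 0.14 without replicate 1.

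Neighbouring hairpins of a cluster, in contrast, gave very unequal amounts of 3p miR. All 3 neighbour pairs differed, beside 80.2% of the 131 pairs of neighbouring hairpins tested. miR-181a-1-3p exceeded miR-181b-1-3p by 4.0 ± 0.23 on the log2 scale (SE, edgeR adjusted p = 0.00032). miR-181a-2-3p exceeded miR-181b-2-3p by 3.94 ± 0.10 (adjusted p = 4.6e-05). The latter SE, derived from the test statistic, is below the counting error of the 69 reads of miR-181b-2-3p. The same ordering, with the miR-181a hairpin above the miR-181b hairpin, was thus found in both clusters. In the third cluster the log2 difference of miR-181d-3p from miR-181c-3p was -7.68 ± 0.22 (adjusted p = 5.5e-05), on 4 against 819 reads. Here too the SE is below the counting error, that of 4 reads, and understates the uncertainty. The median size over the 3 pairs was 4.0, and it was 3.22 over all pairs tested.

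The arms were then compared within each hairpin. In 5 of the 6 hairpins the 5p miR exceeded the 3p miR, and in Mir181c the 3p miR exceeded the 5p miR (edgeR, adjusted over 373 hairpins). Of all hairpins tested, 42.9% were higher on the 5p arm and 43.4% on the 3p arm, with a median log2 ratio of -0.08, against 5.18 over the 6 hairpins. The calls for the hairpins of miR-181a and miR-181b, and this median, rest on 5p reads divided evenly between copies. The ratios are ratios of reads, since no standard of known amount was used here to turn reads of different sequences into molecules.

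In Mir181a-1 the 5p miR had 18, 12.5 and 13.5 times the reads of the 3p miR in replicates 1, 2 and 3, and in Mir181a-2 it had 17.1, 13.7 and 11.8 times. The fitted log2 ratios were 3.86 ± 0.16 (SE, edgeR adjusted p = 9.1e-12) and 3.81 ± 0.16 (adjusted p = 9.8e-12). Because the 5p reads were divided evenly between the copies, the ratio over both copies, which does not depend on that division, is given as well, and it was 14.4 ± 2.74 (SD, n = 3). In Mir181b-1 the ratio was 216, 77.8 and 73.3, and in Mir181b-2 it was 112, 85.0 and 80.1. The value of 216 rests on 11 reads of miR-181b-1-3p, with an exact 95% counting interval from 120 to 433 that overlaps the 51.2 to 124 of replicate 2 but not the 51.5 to 108 of replicate 3. The fitted log2 ratios were 6.64 ± 0.27 (adjusted p = 4.9e-12) and 6.51 ± 0.21 (adjusted p = 3.3e-13), and over both copies the ratio was 102 ± 39.7 (SD, n = 3).

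Mir181d, a hairpin of a single locus, was the most one-sided member. Its 5p miR had 1678, 1247 and 1578 reads against 1, 2 and 1 of its 3p miR. The log2 ratio of 10.13 ± 0.31 (SE, edgeR adjusted p = 1.8e-13) rests on 4 reads of 3p miR in all. The SE, derived from the test statistic, is below the counting error of 4 reads and understates the uncertainty. Over the 3 libraries the ratio ran from 624 to 1678, and the exact counting interval of replicate 1 alone ran from 301 to 66316. The ratio was the 21st largest of the 373. That ranking includes 36 hairpins with 1 arm at 0 reads, whose ratio is not finite, so its place among finite ratios may be higher.

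Mir181c went the other way. Its 5p miR had 235, 130 and 203 reads against 259, 232 and 328 of its 3p miR, so the 3p miR was higher in 3 of 3 libraries. The ratio was 0.91 in replicate 1, where the exact interval of 0.76 to 1.09 held equality, and 0.56 and 0.62 in replicates 2 and 3. The fitted log2 ratio was -0.55 ± 0.19 (SE, edgeR adjusted p = 0.013), with a 95% interval from -0.95 to -0.15. The call was lost without replicate 2 (log2 ratio -0.42, adjusted p = 0.15) and without replicate 3 (-0.48, adjusted p = 0.12), and it held without replicate 1 (-0.76, adjusted p = 0.0078).

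The neighbours Mir181c and Mir181d were therefore ordered differently by each arm. Mir181d gave the more 5p miR, 109 ± 12.6 against 13.7 ± 3.45 RPMR, and Mir181c gave the more 3p miR, 19.7 ± 1.68 against 0.10 ± 0.05 RPMR (SD, n = 3). Both differences passed the tests given above. With both arms added, Mir181c had 36.2, 28.9 and 35.0 RPMR and Mir181d had 123, 99.6 and 104 RPMR in replicates 1, 2 and 3, and the groups did not overlap.

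**Figure D3:**
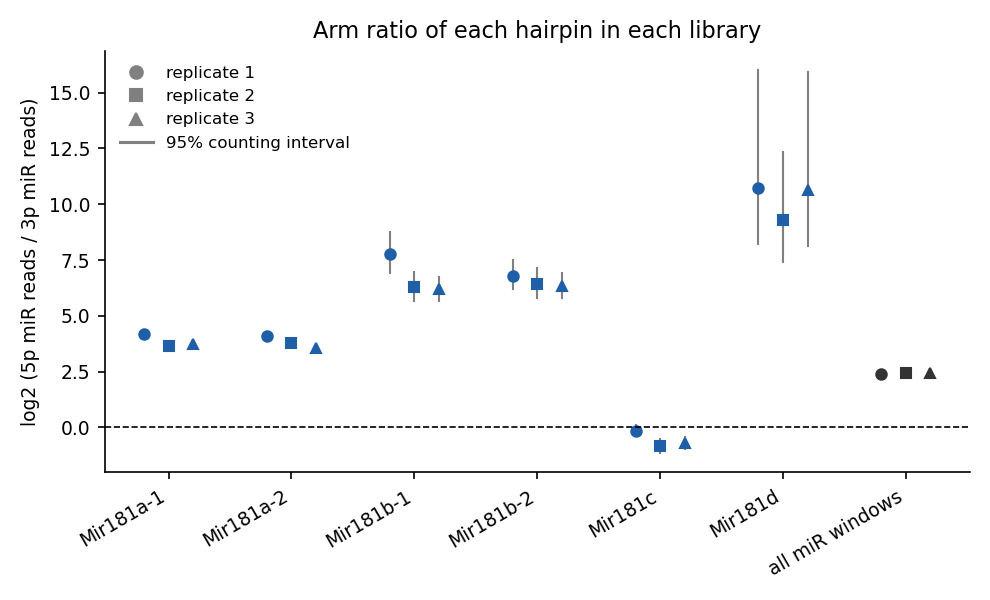
Log2 ratio of 5p miR reads to 3p miR reads for each mir-181 hairpin, and for the sum of all miR windows, in each library, with the exact 95% interval for counting error as a vertical line and equality as a dashed line. Mir181c lies below equality in all 3 libraries, the other 5 hairpins lie above it, and replicate 1 gave the highest ratio of each of the 6 hairpins.

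**Figure D4:**
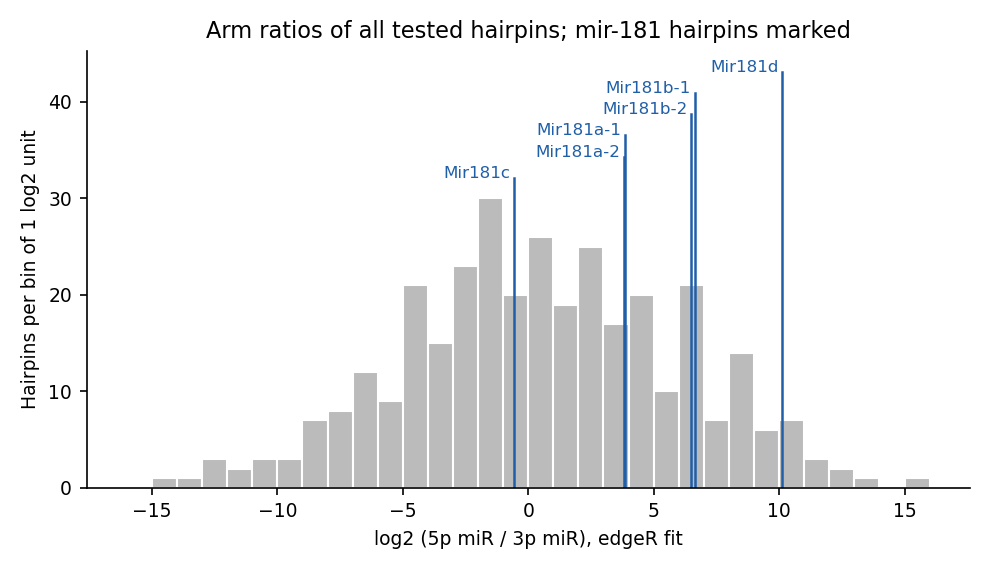
Number of hairpins by fitted log2 ratio of 5p to 3p miR for 337 of the 373 hairpins tested; the other 36 had 1 arm at 0 reads after rounding and no finite ratio. The 6 mir-181 hairpins are marked, from Mir181c at -0.55 to Mir181d at 10.13.

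The arm ratio was highest in replicate 1 for 6 of 6 hairpins. Among the 267 hairpins with both arms read in all 3 libraries, 33.3% had their highest ratio in replicate 1. The hairpins of the family are not independent here, since the copies share their 5p reads. In the levels, the 5 windows of the 5p miRs above 100 RPMR were all highest in replicate 1 and lowest in replicate 2, whereas the 3 upper 3p miRs were all highest in replicate 3. The 5 windows are not independent either, since those of copies hold even shares of the same reads. Of the 96 other miR windows between 100 and 1000 RPMR, 36.5% were highest in replicate 1 and 43.8% were lowest in replicate 2. Replicate 1 also had the smallest share of mapped reads in the windows, 73.1%, against 83.0% in replicate 2 and 81.9% in replicate 3, and its miR-126a-3p level was the lowest, 115 RPMR against 147 and 144. The part of either value in the ratios was not tested.

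The first base of the 3p miR divided the family in the same way as its level. The 3 hairpins whose RefSeq 3p sequence starts with A, Mir181a-1, Mir181a-2 and Mir181c, had 19.7 to 25.4 RPMR of 3p miR and log2 arm ratios from -0.55 to 3.86. The 3 hairpins that start with C, Mir181b-1, Mir181b-2 and Mir181d, had 0.10 to 1.66 RPMR and ratios from 6.51 to 10.13. Over the 327 tested hairpins with a RefSeq 3p sequence, the median log2 ratio was 0.27 for the 83 that start with A and 3.64 for the 93 that start with C, with quartiles of -3.52 to 4.28 and -1.25 to 6.64 that overlapped widely. It was 1.45 for the 29 that start with G and -2.70 for the 122 that start with U. The pattern was noticed after the levels were known and is given as a description.

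The moRs of the family were at or near 0. Of the 12 moR windows 9 had 0 reads in all 3 libraries, and 3 (25%) had 1 read each, where 22.2% of all 1295 moR windows had at least 1 read. The single reads were those of moR-181b-5p at the chromosome 2 locus and moR-181c-3p, both in replicate 1, and of moR-181d-5p in replicate 2. Against the moR, the 5p miR of Mir181b-2 had 6290 times the reads (exact 95% counting interval 1129 to 248481), that of Mir181d 4503 times (808 to 177898), and the 3p miR of Mir181c 819 times (147 to 32388). These 3 arms entered the comparison of miR with moR through their miR reads, so that the miR had to be the higher, and nothing is read from the call; of all 243 arms tested, 91.8% had more miR than moR. For moRs at 0, 3 reads over the 3 libraries were taken as the most that a count of 0 allows. The moR was then at least 337-fold and 353-fold lower than miR-181a-1-3p and miR-181a-2-3p. The divided reads of miR-181a-5p were 4926 and 4927 times this limit at the chromosome 1 and chromosome 2 loci. These 2 values, and the 6290 of Mir181b-2, rest on the even division of 5p reads between copies. They are thus no lower bound for a single locus. Of the 5p windows between 100 and 1000 RPMR, 2 of the family's 5 had a moR read, with at most 1 read each. Of the 48 others 32 (66.7%) had one, with a median of 2 reads and a highest value of 142.

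By level in the 3 libraries, the miR windows nearest to miR-181a-5p at 1 locus, measured by the Euclidean distance of log2(RPMR + 0.1) over the 3 libraries, were miR-34a-5p, miR-186-5p and miR-30b-5p. Their means were 364 ± 58.8, 338 ± 38.0 and 365 ± 76.0 RPMR (SD, n = 3) at distances of 0.07, 0.14 and 0.14. Each was highest in replicate 1 and lowest in replicate 2, like miR-181a-5p. The choice by distance over these same libraries favoured that order, so nothing further is read from it. Each window of miR-181a-5p ranked 97th or 98th of 1295 miR windows and miR-181d-5p, of a single locus, ranked 159th. Each miR-181a-5p window held an even share of reads that could not be assigned to a locus. The sum over both loci was 713 RPMR, so this rank and the nearest miRs are those of the divided value.

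The levels were set beside those of 9 miRs known from NF-kB signalling or vascular inflammation. The list held miR-146b-5p, a repressor of NF-kB signalling through Traf6 and Irak1, at 30748 ± 5445 RPMR (SD, n = 3) and its relative miR-146a-5p at 366 ± 47.9 RPMR. It also held miR-10a-5p, which restrains NF-kB activation in endothelial cells, at 2858 ± 149 RPMR, and miR-155-5p, which is induced in activated macrophages, at 204 ± 37.8 RPMR. The level of miR-181a-5p over both loci, 713 ± 100 RPMR, lay between those of miR-17-5p, 1012 ± 255 RPMR, and miR-146a-5p, but it was above miR-17-5p in replicate 1, with 821 against 781 RPMR. The summed level of miR-181b-5p, 305 ± 37.8 RPMR, was near that of miR-222-3p, 333 ± 58.3 RPMR, and their ranges overlapped. miR-221-3p, from the cluster of miR-222, had 1576 ± 174 RPMR and miR-31-5p had 1909 ± 255 RPMR, and miR-126a-3p, the endothelial miR of the list, had 136 ± 17.8 RPMR. In the comparison of arms, all 9 hairpins of this list differed, 6 with more 5p and 3 with more 3p miR, beside the 42.9% and 43.4% of all 373 hairpins given above, and their median log2 ratio was 5.84. In each of them the listed arm was the higher. The list itself named the arms and was chosen with earlier results of these data known, so nothing is read from this.

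Other markers that were checked bear on what the cultures held. Of the blood miRs, miR-223-3p had 2 reads in all and miR-142a-3p had 10. Of the neuronal pair, miR-124-3p had 0 reads and miR-9-5p, which is abundant in the brain, had 12.2 ± 0.35 RPMR over 3 loci. Of the 5 epithelial miRs, miR-200a-3p, miR-200b-3p and miR-200c-3p reached 1 RPMR, with 2.50, 3.00 and 1.70 RPMR, while miR-429-3p and miR-141-3p had 12 and 2 reads in all. The liver miR miR-122-5p had 1.64 RPMR. Of the striated muscle miRs, miR-206-3p had 138 ± 19.2 RPMR while miR-1a-3p had 0.38 RPMR and miR-133a-3p had 0.016 RPMR. In bulk RNA, fewer cells of a type and less RNA per cell cannot be told apart. The endothelial markers were present, as given above, and their part in the miR-181 levels was not tested.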

How the data were processed

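Small RNA from 3 libraries of AoSMC was sequenced as single reads. The authors trimmed adaptors, mapped inserts longer than 13 bases with Bowtie (no version was found in these sources) to mm10, without mismatches and at up to 5 loci, and divided reads near more than 1 hairpin evenly. Reads inside the miR coordinates widened by 3 bp were counted as miRs, and those from 3 bp inward to 35 bp outward of the outer miR end as moRs. The authors deposited raw reads, which are expected counts because divided reads need not be whole, and RPMR, an RPM value scaled to 1000000 window reads. RPMR recomputed from the counts differed by a relative 5.9e-15 at most.

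The identifiers were matched to the family by name, and all 24 windows are described. Counts were rounded to whole numbers and tested by quasi-likelihood in edgeR 4.0.16 (R 4.3.3), with window totals as library sizes, a block for the library, and Benjamini-Hochberg adjustment over each whole table. Values are paired by design, both being of 1 library. Rows with at least 10 reads were tested, for miR against moR only those with at least 1 moR read, and adjusted p under 0.05 was called. DESeq2 1.42.0, a fit without the block, other filters, other library factors and leaving out each library were alternatives. Neighbours were hairpins within 10 kb on a strand. The SE of a fitted log2 value is that value divided by the square root of the test's F statistic. It was not estimated by the fit itself, and at few reads it can lie below counting error. Intervals of shares and of read ratios are 95% exact Clopper-Pearson intervals and cover counting error only. The 95% intervals of log2 differences and fitted log2 ratios come from the edgeR test, as the value ± a t quantile times its SE. The windows of 1670 of 1679 miRs matched by name to RefSeq reached 3 bases beyond the RefSeq sequence on both sides, with deposited starts read as 1-based, although the notes name the BED format. Python 3.11.15, SciPy 1.17.1 and matplotlib 3.10.9 were used.

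Named miRs are all windows of the family, the 3 windows nearest in level, list members from 1 RPMR, and others with the same seed. miR-223-3p, miR-142a-3p, miR-124-3p, miR-1a-3p, miR-133a-3p, miR-141-3p and miR-429-3p, below that level, were named after their values were seen. Members and lists were chosen with earlier results of these data known.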

Additional observations from a re-analysis of the deposited data

How the results depend on the processing

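The counts of members called were 5 hairpins with more 5p miR, 0 pairs of copies, 3 neighbour pairs and 6 pairs of relatives, and none of these moved under any alternative. No alternative varied the even division of 5p reads between copies. Without the replicate block, which removes the pairing by library, 5, 0, 3 and 6 were called again, Mir181c kept more 3p miR (log2 ratio -0.53, adjusted p = 0.0068), and the block changed no other call. The single hairpin with more 3p miR gave counts of 0 to 1 when a library was left out. The arms with more miR than moR gave 1 to 3. An arm whose single moR read was in the library left out was fitted but dropped from the count. Its moR then had 0 reads, and its ratio was not finite. The log2 difference between copies ran from -0.14 to 0.026 for miR-181a-3p and from -0.32 to 0.14 for miR-181b-3p with a library left out, and neither was called. Of 120 values of single comparisons under other tests, filters and factors, 120 kept their direction and their side of the threshold. The summed level of the family was 958 when scaled to mapped reads, in place of 1214 RPMR, 1210 with TMM-scaled library sizes, and 1133 to 1284 with a library left out. Among the miR windows, depth limits miR-181d-3p and the miR-181b-3p copies most, at 4 to 69 reads in all, and the moR windows had at most 1 read.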
